A study of Mus musculus with 8 samples.

Results

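Every collagen chain that could be measured in cultured mouse dermal fibroblasts was followed here, with and without deletion of Tgfb1. Members were all genes of the table whose symbol has the form of a collagen chain, Col with a type number and a chain number, and 37 of the 15111 genes met this rule. They were grouped by the structure their protein builds, into 11 fibrillar, 9 network-forming, 5 beaded, 6 fibril-associated (FACIT) and 6 other chains. The 8 chains Col6a5, Col9a1, Col13a1, Col19a1, Col21a1, Col22a1, Col25a1 and Col26a1 of the 45 in the class list were not analysed here.

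RNA was sequenced from 4 control and 4 TGFβ1FKO libraries of primary fibroblasts isolated from the skin of adult mice. Control mice carried Tgfb1fl/fl alleles and no Cre, TGFβ1FKO mice carried Tgfb1fl/fl:Col1a2-CreERT, and mice of both groups had been fed tamoxifen, which activates the Cre. The cells of both groups then grew on fibronectin for 72 h, in medium in which serum had been replaced. The question was what the loss of the fibroblasts' own TGFβ1 does to their transcripts. Cre is driven by regulatory sequence of Col1a2, itself a member here, so deletion is aimed at fibroblasts and other cells that make collagen I. The labels number the libraries without stating that each came from a separate mouse, so that p-values measure the spread between libraries, which may be technical. Reads on genes numbered 21806579, 18103121, 16988998 and 19705522 in control libraries 1 to 4 and 19035441, 18849394, 23071528 and 17445002 in TGFβ1FKO libraries 1 to 4.

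Collagens are the main structural proteins of the dermis. Their chains carry a glycine in each repeat of a simple pattern, which lets them wind around each other into a rope-like helix, and these helices assemble into fibrils, sheets, beaded filaments or anchors between tissue layers. TGFβ1 is a secreted growth factor known as a strong inducer of collagen synthesis in fibroblasts, acting through receptors that phosphorylate Smad proteins.

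Tgfb1 itself (ENSMUSG00000002603, chromosome 7, 25687002 to 25705077 in GRCm38) had 1401, 1298, 1483 and 1314 normalised counts in control libraries 1 to 4 and 326, 259.9, 228 and 295 in TGFβ1FKO libraries 1 to 4. A normalised count is the number of reads on a gene divided by a size factor of its library. All TGFβ1FKO libraries lay far below all control libraries, as their labels say, and the mean fell to 20.2% of control. The log2 fold change was -2.31 ± 0.10 (SE, n = 4 per group; adjusted p = 1.53e-07, limma with Benjamini-Hochberg adjustment). Markers of the labelled cell type, fibroblasts, were read too, as were some of other cell types given below. All 9 fibroblast markers had reads, and their summed normalised counts lay between 132620 and 148372 in control and between 131456 and 148789 in TGFβ1FKO libraries. Vim, an intermediate filament of mesenchymal cells, was the most abundant of them with 65871 to 73374 in control and 71504 to 79639 in TGFβ1FKO libraries. Pdgfra, a growth factor receptor of fibroblasts, ranged from 7153 to 9556 in control and from 7005 to 8231 in TGFβ1FKO libraries. Fap, the rarest of the 9, averaged 96.5 in control and 76.6 in TGFβ1FKO libraries.

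The repeat that defines the family can be read in the coding sequences. A glycine codon starts with GG, and an unbroken helix needs such a codon every 3 codons. The longest unbroken run held 338 repeats in Col1a1 and 339 in Col1a2, the chains of collagen I. All 11 fibrillar chains had a longest run of 216 to 344 repeats, whereas it was 39 to 66 in network, 42 to 87 in beaded, 32 to 113 in FACIT and 28 to 75 in other chains. Below, glycine codons are in capitals. The stretches of Col1a1 (bases 502 to 564 of the coding sequence) and Col1a2 (289 to 351) open their long run, while those of Col4a1 (442 to 531) and Col28a1 (1036 to 1125) show where the longest run, of 40 and 28 repeats, breaks off.
Col1a1: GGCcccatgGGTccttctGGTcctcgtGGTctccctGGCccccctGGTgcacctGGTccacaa
Col1a2: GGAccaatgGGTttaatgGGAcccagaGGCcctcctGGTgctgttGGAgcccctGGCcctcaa
Col4a1: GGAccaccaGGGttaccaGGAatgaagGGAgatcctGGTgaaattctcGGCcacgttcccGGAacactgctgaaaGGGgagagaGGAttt
Col28a1: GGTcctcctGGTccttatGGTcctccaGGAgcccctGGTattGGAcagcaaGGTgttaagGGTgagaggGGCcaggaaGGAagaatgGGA

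In control fibroblasts collagen transcripts took 8.905%, 9.57%, 9.678% and 10.6% of the reads of libraries 1 to 4. In TGFβ1FKO fibroblasts they took 9.796%, 10.29%, 9.43% and 9.915%. Control replicate 1 had the lowest and control replicate 4 the highest share, and all TGFβ1FKO libraries lay between them. The mean share was 9.69% ± 0.696 (SD, n = 4) for controls, beside 9.86% ± 0.355 (SD, n = 4) for TGFβ1FKO fibroblasts. Most of it came from fibrillar chains, at 7.98% ± 0.572 (SD, n = 4) of all reads for controls and 7.98% ± 0.284 (SD, n = 4) for TGFβ1FKO fibroblasts. Beaded chains took 0.86% and 0.918% of reads on average, network chains 0.492% and 0.526%, FACIT chains 0.3004% and 0.379%, and other chains 0.0562% and 0.05303%. For every class the ranges of the groups overlapped. Col1a1, Col1a2 and Col3a1 together took 7.08% and 7.05% of reads, and the other 34 members 2.61% and 2.804%. Such sums over members were not tested.

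**Figure D1:**
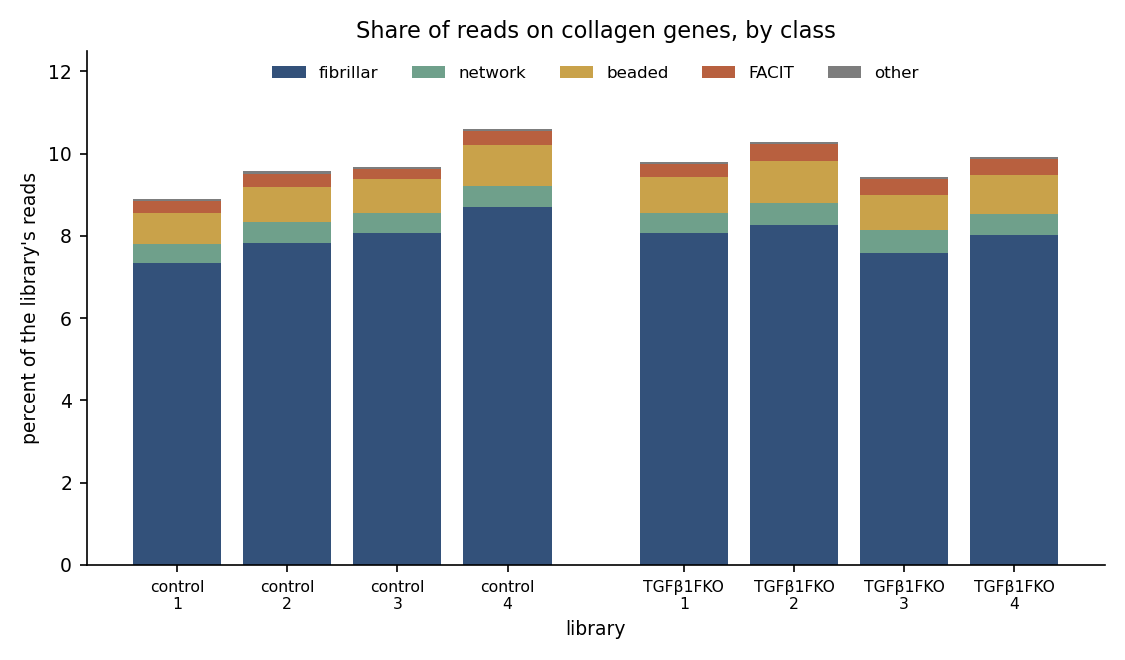
Percent of each library's reads on collagen genes (vertical axis) for the 4 control and 4 TGFβ1FKO libraries (horizontal axis), stacked by collagen class. Totals ran from 8.905% to 10.6% in control and from 9.43% to 10.29% in TGFβ1FKO libraries.

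Levels of single chains differed widely. Per kilobase of transcript, the mean control level was 110201 normalised counts for Col1a1 and 0.593 for Col4a3. On this scale Col1a1, Col1a2 and Col3a1 ranked at positions 3, 5 and 7 among 15098 genes with a known length. Col5a2, Col6a1 and Col6a2 also stood among the first 100 genes. Fibrillar chains made up 83.4% of the summed collagen level per kilobase in control and 82.4% in TGFβ1FKO fibroblasts, beaded chains 9.47% and 9.93%, and network chains 4.73% and 4.97%. At the other end, 8 members had fewer than 10 reads in at least 1 library, so that counting error limits what can be said of them.

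**Figure D2:**
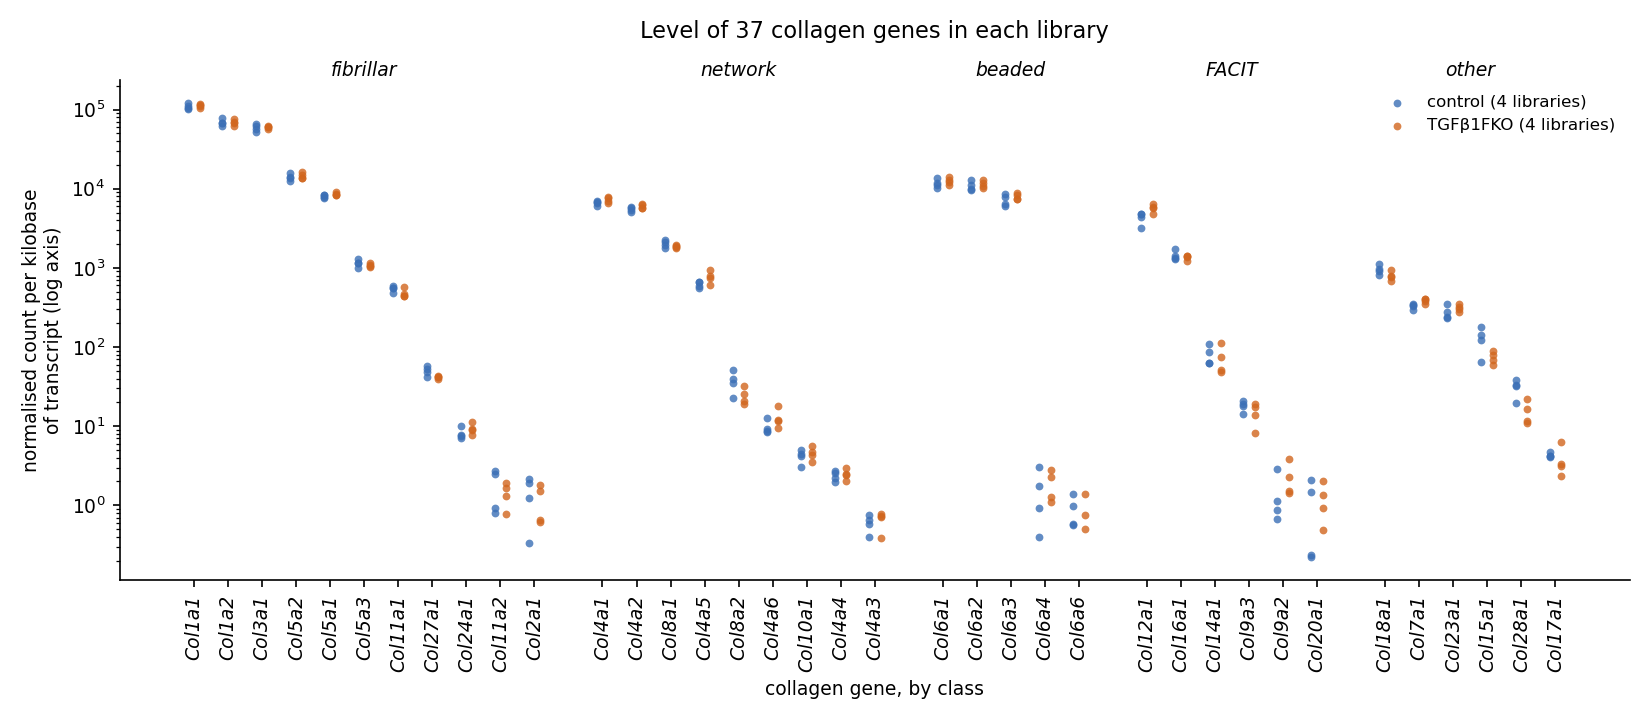
Normalised count per kilobase of transcript (vertical log axis) of 37 collagen genes (horizontal axis, by class), with 1 point per library. Col1a1 stands highest, with a mean control level of 110201, and the ranges of control (blue) and TGFβ1FKO (orange) points overlap in each gene but Col7a1; 1 value of 0 (Col6a6, TGFβ1FKO replicate 2) has no point.

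None of the 37 collagen genes passed the thresholds of the comparison, which asked for an adjusted p below 0.05 together with a log2 fold change beyond 0.6 either way in limma's moderated test; 0.086% of all genes passed them. Fold changes are on the scale of log2(normalised count + 1), which can be larger or smaller than those of the count models in genes with few counts. edgeR's quasi-likelihood test on recovered reads also called 0 members, against 0.132% of all genes. DESeq2's test against a fold change of 0, with the same cutoff, called 1 member, Col28a1, against 0.371% of all genes; it was lower in TGFβ1FKO fibroblasts, as were 0.344% of all genes under that call, while 0 members and 0.0265% of all genes were called higher. At an unadjusted p under 0.05 there were 8 members in limma's test, or 21.6%, against 7.46% of all genes, and the same 8 members in the edgeR test (7.46% of all genes) and in DESeq2's test against 0 (6.58%). Of these 8, 5 kept such a p without control replicate 3, and 6 without control replicate 4 or without TGFβ1FKO replicate 3. In the test on all libraries, 5 were lower in TGFβ1FKO fibroblasts (Col28a1, Col15a1, Col8a2, Col27a1 and Col18a1; 3.87% of all genes were lower at that threshold) and 3 higher (Col12a1, Col4a5 and Col7a1; 3.59% of all genes). The groups did not overlap in 1 member, Col7a1, or 2.7%, against 3.79% of all genes; it was higher in TGFβ1FKO libraries, as were 1.69% of all genes without overlap, and 0 members were lower without overlap, against 2.1%. Estimates beyond 0.6 either way were found for 4 members, or 10.8%, against 4.55% of all genes. Of the 4, Col6a6 at -0.77 was -0.36 in edgeR and -0.39 in DESeq2, and -0.0095 without TGFβ1FKO 2. Col9a2 was 0.39 without TGFβ1FKO 1 and Col15a1 -0.50 without control 3, whereas Col28a1 stayed beyond 0.6 with any library left out. Over all members 16 estimates were negative and 21 positive (49.1% and 50.9% of all genes), with a median of 0.06 beside 0.00 (0.0031) over all genes. That median of the members was 0.01 without control 1, 0.02 without TGFβ1FKO 2 or TGFβ1FKO 4, and 0.03 with at least 10 reads asked of every library.

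**Figure D3:**
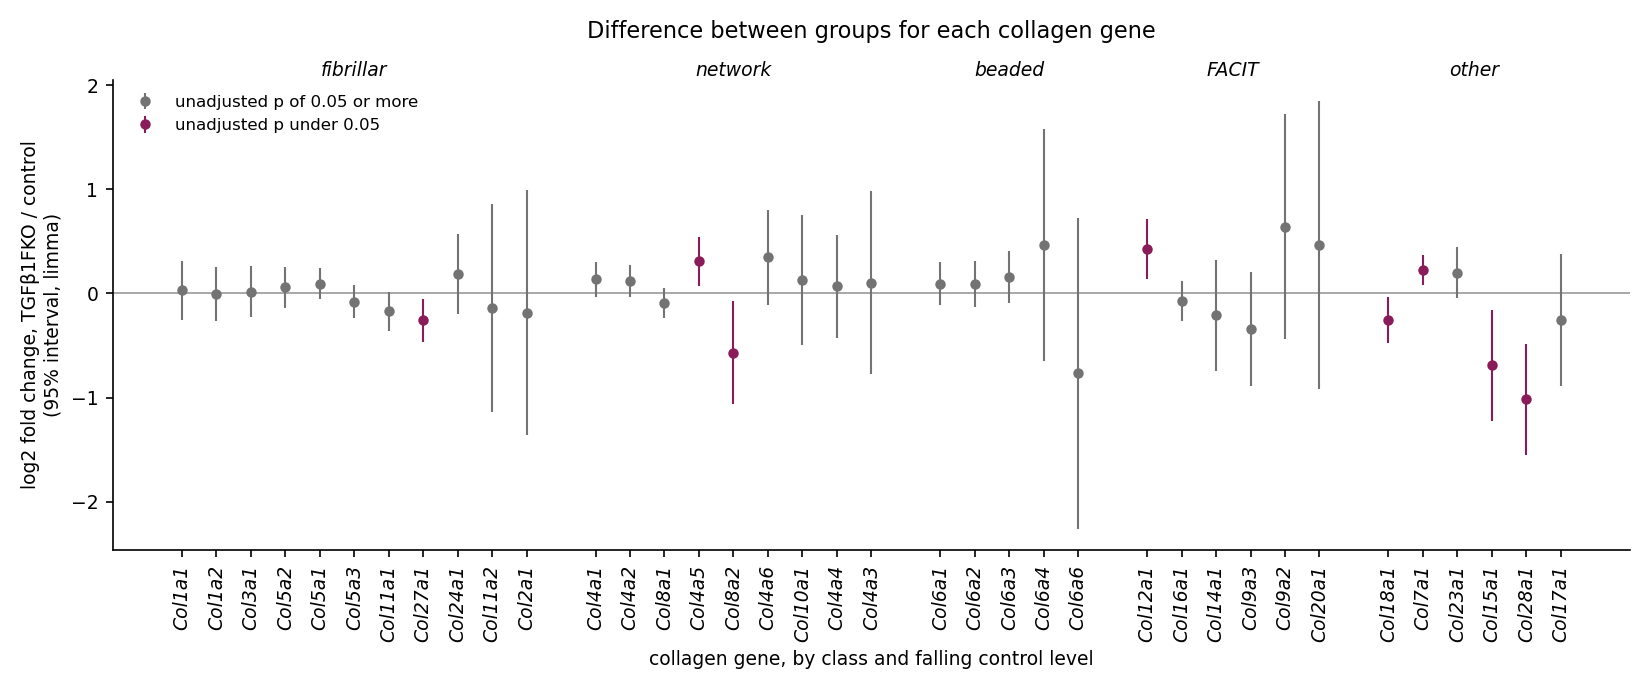
Log2 fold change of TGFβ1FKO over control (vertical axis) with its 95% interval in limma's test, for 37 collagen genes by class (horizontal axis). Purple marks the 8 genes with an unadjusted p under 0.05; the lowest estimate is -1.02 for Col28a1, and intervals widen to the right of each class, where levels are low.

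Fibrillar chains build the striated fibrils that give skin its tensile strength, and collagen I is the most abundant of them. Col1a1 had 599011, 626953, 662812 and 725180 normalised counts in control libraries 1 to 4 and 680166, 688658, 626701 and 663598 in TGFβ1FKO libraries 1 to 4. Col1a2 had 331159, 357500, 366183 and 417112 in control and 359380, 403099, 334618 and 369002 in TGFβ1FKO libraries. For both chains the TGFβ1FKO values fell inside the control range. The 95% interval of the log2 fold change reached from -0.26 to 0.31 for Col1a1 and from -0.26 to 0.25 for Col1a2 (adjusted p = 0.975 and 0.996, limma). Col3a1, the chain of collagen III in extensible tissue, had 288466, 342187, 320657 and 367105 in control and 345751, 330520, 313297 and 339337 in TGFβ1FKO libraries. Its estimate of 0.02 had an interval of -0.23 to 0.26, and its groups overlapped as well. The signs of these 3 estimates were not fixed: without control replicate 1 they were -0.01 for Col1a1 and -0.05 for Col3a1, without control replicate 4 it was 0.06 for Col1a2, and scaling to genes that are not collagens turned Col3a1 too.

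Collagen V starts collagen I fibrils and limits their width. Its chain Col5a1 had 63708, 71020, 65922 and 70111 normalised counts in control and 71012, 71354, 75558 and 70761 in TGFβ1FKO libraries. Col5a2 had 83279, 93923, 89945 and 103600 in control and 89339, 107407, 90978 and 98017 in TGFβ1FKO libraries. Both had small positive estimates, 0.09 and 0.06, and overlapping groups; for Col5a2 the estimate was 0.01 without control replicate 1, 0.0048 without TGFβ1FKO replicate 2 and 0.11 without control replicate 4. Col5a3 averaged 7002 and 6611, and Col11a1, a chain of the cartilage fibril collagen XI, 4176 and 3712 (adjusted p = 0.831 and 0.682, limma). Col27a1, a minor fibrillar chain, had 363, 321, 440.2 and 396 in control and 302, 318, 323 and 318 in TGFβ1FKO libraries. Its TGFβ1FKO values lay close together and below 3 of the 4 controls, and TGFβ1FKO replicate 3 was just above control replicate 2. The log2 fold change was -0.26 ± 0.10 (SE, n = 4 per group; adjusted p = 0.599, limma). Col24a1, another minor chain, averaged 57.8 and 65.8. Col2a1 and Col11a2, chains of cartilage, averaged under 10 normalised counts in both groups.

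Network collagens form sheets and lattices. Col4a1 and Col4a2 make the basement membrane sheet found in every tissue, and their genes lie head to head on chromosome 8, with first exons that overlap by a few bases. The window around each start, from 250 bases before to 50 after, is given because the pair is read from it in opposite directions (RefSeq, GRCm38.p6; Col4a1 on the minus strand at chr8:11312777-11313076, Col4a2 on the plus strand at chr8:11312555-11312854). The 78 bases that the windows share, read from opposite strands, are in capitals.
Col4a1: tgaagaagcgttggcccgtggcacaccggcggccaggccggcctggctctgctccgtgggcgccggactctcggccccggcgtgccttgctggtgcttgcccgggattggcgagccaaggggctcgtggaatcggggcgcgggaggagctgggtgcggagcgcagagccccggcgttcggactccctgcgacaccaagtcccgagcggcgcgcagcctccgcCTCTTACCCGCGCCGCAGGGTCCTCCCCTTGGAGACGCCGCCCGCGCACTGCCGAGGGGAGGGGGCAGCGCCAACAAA
Col4a2: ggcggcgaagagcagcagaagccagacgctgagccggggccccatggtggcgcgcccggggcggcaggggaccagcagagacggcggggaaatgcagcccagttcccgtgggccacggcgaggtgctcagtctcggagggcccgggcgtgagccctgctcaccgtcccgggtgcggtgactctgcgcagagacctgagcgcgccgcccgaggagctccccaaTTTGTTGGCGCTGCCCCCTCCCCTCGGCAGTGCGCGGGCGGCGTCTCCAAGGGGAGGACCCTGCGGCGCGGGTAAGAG

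Col4a1 had 39510, 46238, 44237 and 44539 normalised counts in control and 43132, 50587, 51465 and 46553 in TGFβ1FKO libraries. Col4a2 had 33027, 38296, 34633 and 36678 in control and 36575, 39891, 41867 and 36809 in TGFβ1FKO libraries. The pair gave similar estimates of 0.13 and 0.12, and in both the groups overlapped (adjusted p = 0.722 and 0.725, limma). Another pair, Col4a5 and Col4a6 on chromosome X, faces away from a shared stretch of 1308 bases. Col4a5 had 3624, 4367, 3834 and 4336 in control and 3990, 6127, 4895 and 5181 in TGFβ1FKO libraries. In 3 of 4 TGFβ1FKO libraries Col4a5 was above every control library, with a log2 fold change of 0.31 ± 0.11 (SE, n = 4 per group; adjusted p = 0.57, limma). Its partner Col4a6 averaged 65.4 and 84.8, with an estimate of 0.35 and an interval of -0.11 to 0.80. Without TGFβ1FKO 2, which had 121 counts against 62.8 to 78.7 in the other 3, the estimate was 0.16. A last pair, Col4a3 and Col4a4 with 71 bases between their starts, averaged 5.08 and 5.57 normalised counts for Col4a3 and 23.9 and 25.1 for Col4a4.

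Collagen VIII forms a hexagonal lattice in vessel walls and beneath the corneal endothelium. Its chain Col8a1 averaged 10264 normalised counts in control and 9573 in TGFβ1FKO fibroblasts. Col8a2 was far rarer, with 98.1, 169, 154 and 219 in control and 139, 89.1, 82.2 and 112 in TGFβ1FKO libraries. Control replicate 1 lay among the TGFβ1FKO values, and the other 3 control libraries above them. The log2 fold change was -0.57 ± 0.23 (SE, n = 4 per group; adjusted p = 0.638, limma). Col10a1, known from hypertrophic cartilage, averaged 13.1 and 14.3.

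Collagen VI is the beaded microfibril that surrounds cells and links them to the fibrils around them. Col6a1 had 42319, 45702, 48390 and 56417 normalised counts in control and 49630, 56951, 45429 and 53444 in TGFβ1FKO libraries. Col6a2 had 37709, 38826, 43420 and 51221 in control and 43004, 50900, 40746 and 46539 in TGFβ1FKO libraries. Col6a3 had 60457, 79548, 65317 and 87377 in control and 74880, 90333, 74754 and 83529 in TGFβ1FKO libraries. In each of these 3 chains control replicate 1 was lowest and control replicate 4 highest among controls, and TGFβ1FKO replicate 2 was highest of all 8 libraries except for Col6a2, where control replicate 4 was. Their estimates were 0.09, 0.09 and 0.16 (adjusted p between 0.798 and 0.874, limma). Single libraries moved these: without control replicate 1 they were 0.03, 0.03 and 0.07, and without control replicate 4 they were 0.17, 0.18 and 0.25. Col6a4 averaged 11.2 and 13.7. Col6a6 averaged 7.699 and 5.81, with 0 reads in TGFβ1FKO replicate 2, which allows up to 3.11 normalised counts there; its interval of -2.26 to 0.72 spans 0.

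FACIT collagens have interrupted helices and sit on the surface of fibrils. Col12a1, the chain of collagen XII, which bridges fibrils in skin and tendon, had 50358, 54541, 36307 and 55907 normalised counts in control and 54938, 74386, 68271 and 65204 in TGFβ1FKO libraries. TGFβ1FKO replicate 1 lay inside the control range and the other 3 above it, while control replicate 3 was the lowest library. The mean in TGFβ1FKO fibroblasts was 133% of control, and the log2 fold change was 0.43 ± 0.13 (SE, n = 4 per group; adjusted p = 0.51, limma). With single libraries left out, the estimate ran from 0.29 (without control replicate 3) to 0.51 (without TGFβ1FKO replicate 1). An exact permutation test over the libraries gave p = 0.0571 (two-sided), where 4 against 4 allow no p below 0.0286. Col16a1 averaged 7513 and 7083, and Col14a1, which also binds fibrils, 518 and 462. Col9a3, Col9a2 and Col20a1 averaged at most 54.5 in either group, and the estimate of 0.64 for Col9a2 rests on 2 to 11 reads per library (interval -0.44 to 1.72).

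The remaining chains are anchoring, membrane-spanning or basement membrane zone collagens. Col7a1 is the chain of the anchoring fibrils that hold the epidermis to the dermis. It had 3166, 3023, 2746 and 3227 normalised counts in control and 3231, 3793, 3725 and 3498 in TGFβ1FKO libraries. All TGFβ1FKO libraries lay above all control libraries, by a margin as small as 3227 against 3231. In limma's test the estimate was 0.23 ± 0.07 (SE, n = 4 per group; log2 scale, adjusted p = 0.46), and the exact permutation test gave its smallest p, 0.0286 (two-sided). Col23a1, a membrane-spanning chain, averaged 1563 and 1773, and Col17a1, a chain of the hemidesmosomes of keratinocytes, 24.01 and 21.3.

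Col15a1 and Col18a1 are multiplexins, proteoglycan collagens of basement membrane zones. Col15a1 had 330.4, 735, 917 and 642 normalised counts in control and 356, 466, 304 and 416 in TGFβ1FKO libraries. Control replicate 1 was within the TGFβ1FKO range, and the other 3 control libraries were above it. The log2 fold change was -0.69 ± 0.24 (SE, n = 4 per group, adjusted p = 0.582, limma). Without control replicate 1 it was -0.99 and passed the thresholds (limma, adjusted p = 0.043). Across the alternatives the adjusted p ranged from 0.043 to 1, the upper end being reached in DESeq2's test against a log2 fold change of 0.6. With single libraries left out, the estimate of Col15a1 ran from -0.99 to -0.50, the latter without control replicate 3. Col18a1, the precursor of endostatin, had 4497, 5113, 6203 and 5389 in control and 4253, 5231, 3822 and 4479 in TGFβ1FKO libraries. Its groups overlapped, and the log2 fold change was -0.25 ± 0.10 (SE, n = 4 per group; adjusted p = 0.641, limma).

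Col28a1, the chain of collagen XXVIII, known from the basement membrane around Schwann cells of peripheral nerve, had the lowest estimate of all members. It had 138, 141, 162 and 82.0 normalised counts in control and 46.6, 49.7, 93.0 and 68.7 in TGFβ1FKO libraries. Control replicates 1 to 3 lay above all TGFβ1FKO libraries, and control replicate 4 lay below TGFβ1FKO replicate 3. The mean in TGFβ1FKO fibroblasts was 49.4% of control. The log2 fold change was -1.02 with a 95% interval of -1.55 to -0.49 (adjusted p = 0.282, limma), and the exact permutation test gave p = 0.0571 (two-sided). DESeq2's test against 0 called it with a log2 fold change of -1.01 ± 0.25 (SE, n = 4 per group; adjusted p = 0.0168); across the alternatives that value ranged from 0.0168 to 1. When single libraries were dropped, the estimate stayed between -1.23 and -0.88.

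**Figure D4:**
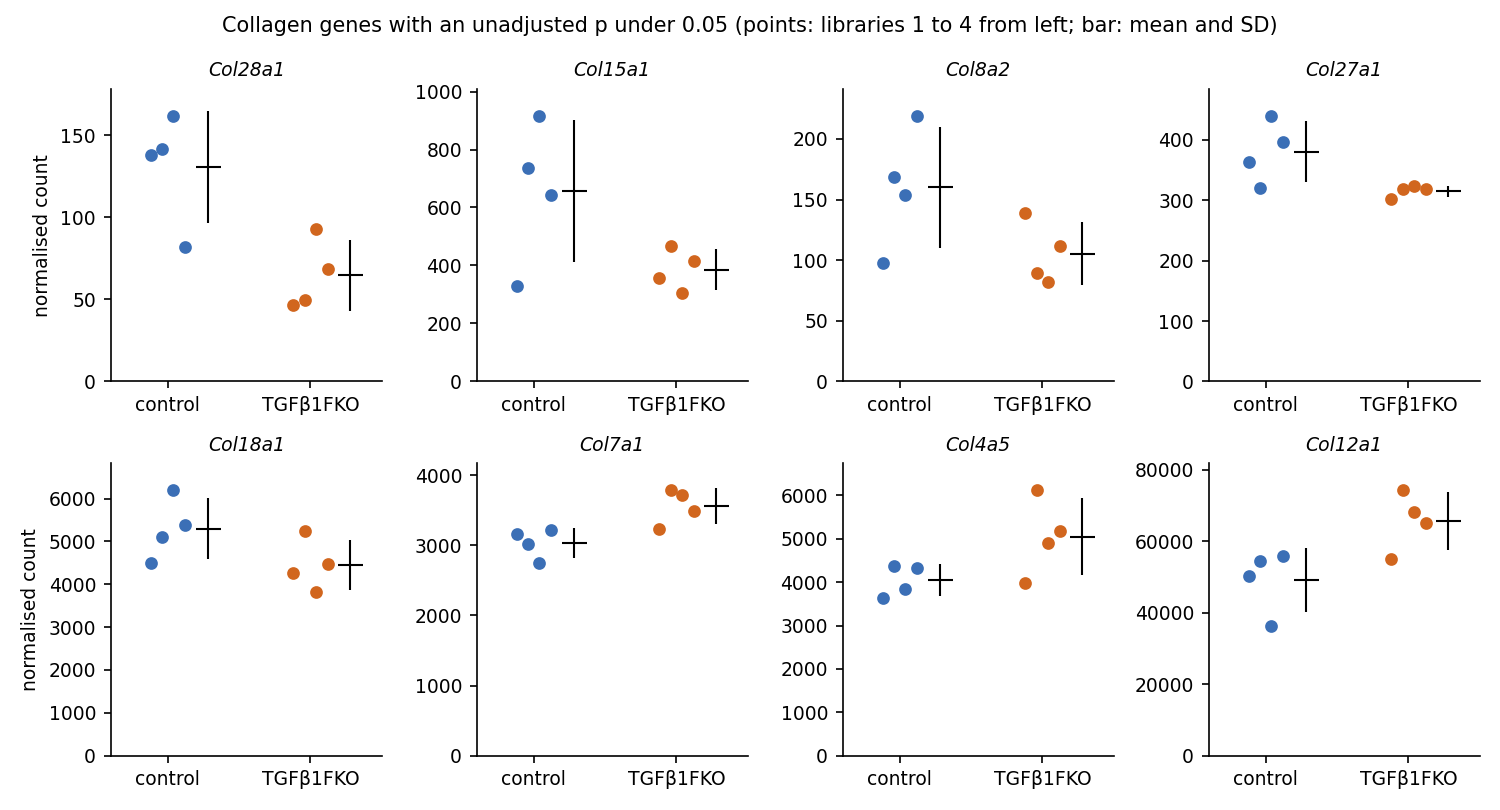
Normalised counts (vertical axis, from 0) of the 8 collagen genes with an unadjusted p under 0.05 in control and TGFβ1FKO libraries, with the mean and SD beside the points. Groups are apart only in Col7a1, where the highest control value is 3227 and the lowest TGFβ1FKO value 3231.

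Markers of Schwann cells were measured beside it, from a list that was shortened after its values were seen. Of its 13 markers, 11 had reads in the table, and their estimates ran from -3.20 to -0.07 (Egr2, a transcription factor), the median being -2.04. In limma's test 2 of them were called lower and 0 higher (0.0794% and 0.00662% of all genes), and 10 had an unadjusted p under 0.05 (7.46% of all genes). edgeR called 3 of the 11 (0.132% of all genes) and DESeq2 against 0 called 5 (0.371%), and the groups did not overlap in 6 (3.79%). The 2 called by limma, Sox10 and Foxd3, became 5 without control 4 or with replicates as blocks, and 3 without TGFβ1FKO 1. With at least 10 reads asked of every library these 2 had no row, and 0 of the 6 markers left were called. The median estimate of those 6 was -0.70. Over all 11 markers the median was -1.28 with a pseudocount of 5, -2.55 in edgeR and -2.59 in DESeq2. Summed normalised counts of the 11 were 3023, 2873, 3298 and 2273 in control and 2459, 1476, 1398 and 1880.0 in TGFβ1FKO libraries, so that TGFβ1FKO replicate 1 lay above control replicate 4. Ngfr, a neurotrophin receptor and the most abundant of them, had 1764, 1384, 1386 and 1251 in control and 1512, 728, 622 and 1023 in TGFβ1FKO libraries, with replicate 1 of TGFβ1FKO above 3 of 4 controls. Sox10, a transcription factor of the neural crest, had 133, 148, 207 and 72.1 in control and 19.3, 7.25, 18.3 and 21.1 in TGFβ1FKO libraries. Sox10 was lower in each TGFβ1FKO library than in any control, at -3.01 on the log2 scale (limma, adjusted p = 0.00499). The other called marker was Foxd3, a transcription factor of the neural crest, at -3.20 (limma, adjusted p = 0.00757). Gfap and Pou3f1 were not analysed here. In bulk RNA, fewer cells of a type and less RNA per cell cannot be told apart, and the part of these markers in the result for Col28a1 was not tested.

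Col1a2, whose regulatory sequence drives the Cre, and Col28a1 lie on the same chromosome, and their promoters are printed here because of these roles. They span chr6:4505368-4505667 on the plus strand and chr6:8192568-8192867 on the minus strand (RefSeq, GRCm38.p6). Capitals mark the Smad box, CAGAC on either strand (reverse GTCTG), and the CCAAT box on either strand (reverse ATTGG), which share no letters here.
Col1a2: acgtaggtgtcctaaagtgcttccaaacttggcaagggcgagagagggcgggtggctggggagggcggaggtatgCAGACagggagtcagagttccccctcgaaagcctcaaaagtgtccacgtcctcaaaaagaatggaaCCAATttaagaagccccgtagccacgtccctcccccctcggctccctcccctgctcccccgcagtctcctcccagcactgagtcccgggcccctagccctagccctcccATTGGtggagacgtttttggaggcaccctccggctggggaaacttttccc
Col28a1: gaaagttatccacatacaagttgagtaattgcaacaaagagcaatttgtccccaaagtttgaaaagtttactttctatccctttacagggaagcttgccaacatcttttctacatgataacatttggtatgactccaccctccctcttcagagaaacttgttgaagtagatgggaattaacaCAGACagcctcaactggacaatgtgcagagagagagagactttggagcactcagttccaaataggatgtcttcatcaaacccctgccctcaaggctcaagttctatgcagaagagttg
The Col1a2 window held 1 Smad box and 2 CCAAT boxes, and the Col28a1 window 1 Smad box and 0 CCAAT boxes. Promoters were listed for 30 members, and not for Col1a1, Col2a1, Col4a3, Col5a2, Col9a3, Col12a1 and Col14a1. These members had 32 listed promoters, since Col18a1 and Col6a2 had 2 each. A Smad box was in 17 of the 32, or 53.1%, against 49.6% of all 32851 promoters, and a CCAAT box in 11, or 34.4%, against 37.4%. Such short motifs are common, and a match is a description of the letters, not a binding site.

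Some helices join different chains, and collagen I is built from more Col1a1 than Col1a2 chains. The ratios below are of RNA, and ratios of chains in the protein were not measured. The ratio of Col1a1 to Col1a2 per kilobase was 1.63, 1.58, 1.63 and 1.57 in control and 1.71, 1.54, 1.69 and 1.62 in TGFβ1FKO libraries. Over all 8 libraries this ratio ran from 1.54 to 1.71, and the groups overlapped. Col4a1 to Col4a2 per kilobase averaged 1.19 and 1.2 in the groups. Over all 8 libraries Col6a1 to Col6a2 ran from 1.06 to 1.13, Col6a3 to Col6a1 from 0.548 to 0.706 and Col5a1 to Col5a2 from 0.524 to 0.655. Only the ratio of Col8a1 to Col8a2 spread widely among the 6 examined, from 38.0 to 92.5 in control and from 58.6 to 104 in TGFβ1FKO libraries. In all 6 ratios the groups overlapped, and none was tested.

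**Figure D5:**
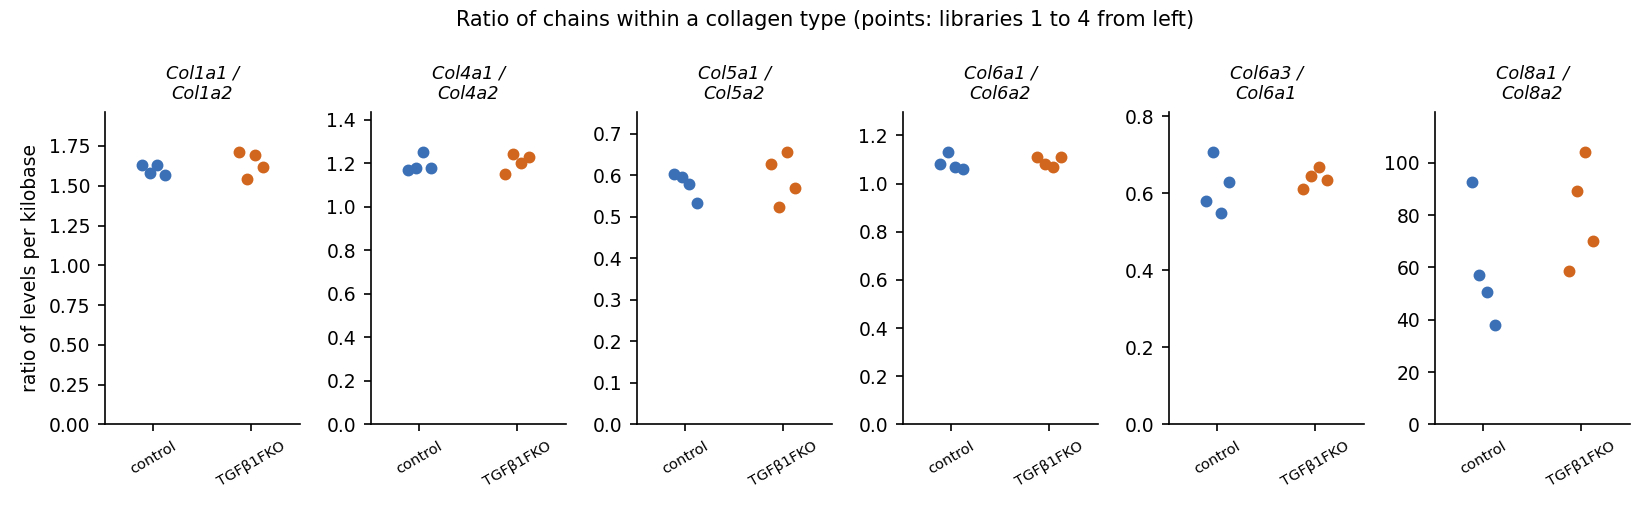
Ratio of levels per kilobase (vertical axes, each from 0) between chains of collagens I, IV, V, VI and VIII in control and TGFβ1FKO libraries, with 1 point per library. Points of both groups overlap in each panel, and Col8a1 to Col8a2 runs from 38.0 to 104.

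The libraries differed in collagen level within a group too. Among the 19 members with at least 1000 reads in every library, control replicate 1 was the lowest control in 14 and control replicate 4 the highest in 11. For 3301 genes of that depth in the whole table, control replicate 1 was the lowest control in 20.6% and control replicate 4 the highest in 29.9%. In the TGFβ1FKO group, replicate 2 was highest in 11 and replicate 3 lowest in 9 of the 19 members, beside 30.1% and 25.7% of those 3301 genes. Among these 19 members 4 had an unadjusted p under 0.05, Col12a1, Col4a5, Col7a1 and Col18a1, beside 286 of the 3301 genes. The median estimate of all 19 was 0.09, and that of the 3301 genes 0.02. Without control 1 or without TGFβ1FKO 2 the 19 had a median of 0.03. In the 18 members with fewer reads the median was -0.17, but 0.07 without control 3, 0.00 without TGFβ1FKO 2 and -0.01 without TGFβ1FKO 3.

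Before secretion, collagen chains are hydroxylated, folded by chaperones and cut, and outside the cell lysyl oxidases cross-link them. Of 32 genes for these steps 31 were measured. In limma's test 0 were called (0.086% of all genes) and 2 had an unadjusted p under 0.05 (7.46%). Serpinh1, the collagen chaperone and the most abundant of them per kilobase, ranged from 50420 to 55466 normalised counts in control and from 51727 to 55240.0 in TGFβ1FKO libraries. Loxl4, a lysyl oxidase, had 597, 703, 663 and 642 in control and 674, 922, 879 and 868 in TGFβ1FKO libraries, an estimate of 0.35 (limma, adjusted p = 0.415). Plod2, a hydroxylase of lysines in the non-helical ends of the chains, had 834, 998, 922 and 788 in control and 706, 701, 819 and 784 in TGFβ1FKO libraries, with -0.23 (adjusted p = 0.592, limma). In both genes the groups overlapped. The groups were apart in 1 gene of the list (3.79% of all genes), Bmp1, a protease that cuts procollagen, with 13143 to 13965 in control and 12355 to 13121 in TGFβ1FKO libraries (limma, adjusted p = 0.671). Summed counts of the list differed little, at 275591 ± 2742 (SD, n = 4) for controls and 275149 ± 4168 (SD, n = 4) for TGFβ1FKO fibroblasts.

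Cells hold collagen through integrins and discoidin domain receptors. Of 10 such receptors 8 were measured, and limma called 0 of them (0.086% of all genes). Their median estimate was 0.09, but 0.05 without control 3 or TGFβ1FKO 2 and 0.14 without control 4. Itgb1, the shared integrin subunit and the most abundant, averaged 22830.0 and 24162 normalised counts. Ddr2, a receptor for fibrillar collagen, had 8667, 10400, 8912 and 10904 in control and 9991, 12133, 11024 and 11438 in TGFβ1FKO libraries, with 0.20 (adjusted p = 0.641, limma). Its groups overlapped, and it was the only receptor of the 8 with an unadjusted p under 0.05, as 7.46% of all genes had. Among 12 proteins that bind fibrils or steer their growth, limma called 0 (0.086% of all genes). An unadjusted p under 0.05 was found for 1 (7.46% of all genes). This was Fmod, a small proteoglycan of fibrils, with an estimate of 0.19 (limma, adjusted p = 0.647). Sparc, the most abundant of them per kilobase, ranged from 167830 to 187461 in control and from 164572 to 189552 in TGFβ1FKO libraries.

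Other cell types that make basement membrane collagens were looked for in the same libraries. All 10 endothelial markers were measured and had negative estimates, the median being -0.55. With a library left out, this median ran from -0.88 (without control 4) to -0.40 (without TGFβ1FKO 1). In limma's test 0 of the 10 were called (0.086% of all genes). An unadjusted p under 0.05 was found for 2 (7.46% of all genes), Pecam1 (-0.99) and Cldn5 (-1.24). Summed normalised counts of the 10 were 697, 859, 811 and 545 in control and 524, 584, 537 and 547 in TGFβ1FKO libraries. Tek was the most abundant. Control replicate 4 lay within the TGFβ1FKO range of this sum. Of 8 pericyte markers 6 were measured, with a median of -0.21. With a library left out, it ran from -0.40 (without control 4) to -0.12 (without control 2). An unadjusted p under 0.05 was found for 1, Cspg4, at -0.50 (7.46% of all genes had such a p). Mcam was the most abundant per kilobase. Summed normalised counts of these 6 were 1260.0, 1925, 1965 and 1450.0 in control and 1248, 1682, 1559 and 1532 in TGFβ1FKO libraries, overlapping. The part of these markers in the results for Col15a1, Col18a1 and Col8a2 was not tested.

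Of 10 keratinocyte markers 5 were measured, and Krt5, Krt14, Krt1, Dsg3 and Lor were not analysed here. The summed normalised counts of the 5 lay between 229.7 and 295 in all libraries, with Krt10 the most abundant per kilobase. Dsp, of cell junctions, had a log2 fold change of 1.01, Trp63, a transcription factor of basal cells, of 0.57, and Itgb4, an integrin of hemidesmosomes, of -0.48. These 3 of the 5 had an unadjusted p under 0.05, as did 7.46% of all genes. Of the 5, limma called 0 (0.086% of all genes). Without overlap, Dsp was higher and Itgb4 lower in TGFβ1FKO libraries, against 1.69% higher and 2.1% lower over all genes. Of 8 chondrocyte markers only Sox9 and Matn3 were measured, both with groups that overlapped, and their sum ran from 852 to 1038 in control and from 665 to 1161 in TGFβ1FKO libraries. Of 8 macrophage markers 4 were measured, led by Lyz2 with 115 to 342 normalised counts. Their sum ran from 561 to 645 in control and from 372 to 615 in TGFβ1FKO libraries. Of these 4, limma called 0 (0.086% of all genes), with 0 at an unadjusted p under 0.05 (7.46%).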

How the data were processed

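Primary dermal fibroblasts of 4 control and 4 TGFβ1FKO samples, grouped by the titles in their labels, were sequenced as polyadenylated RNA in non-directional libraries. According to the submitters' processing notes and the study's methods, the authors used CASAVA 1.8, HISAT2 2.0.5 with GRCm38, featureCounts 1.5.0-p3 and DESeq2 1.42.0 in R 4.3.2, and left out genes with low summed counts. The deposited values are a signal, normalised counts with 0.5 added by the authors. The 0.5 was subtracted, and in each library 100% of values were then whole reads within 0.1 of a read, between 16988998 and 23071528 per library. The deposited table also holds the authors' mean, log2 fold change, standard error, statistic and p-values, which were not used.

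Groups were compared over all 15111 genes with limma 3.58.1 in R 4.3.3 (mean-variance trend, pseudocount 1), with calls needing a Benjamini-Hochberg adjusted p below 0.05 and a log2 fold change beyond 0.6 either way. On the recovered reads edgeR 4.0.16 called 20 genes and DESeq2 1.42.0 against 0 called 56. The limma, edgeR and DESeq2 tests were tested on simulated data. Intervals are 95% intervals, and the floor of 3 reads for a count of 0 covers counting error only. Levels per kilobase used the GENCODE M21 transcript with the longest coding sequence (15098 genes had a model), and promoters came from RefSeq, matched by symbol for 30 of 37 members. Values in every library are given for the 10 members with the highest control level per kilobase, for members called by limma or by DESeq2 against 0, and for members with an unadjusted p under 0.05 or groups that do not overlap. The list genes named are some of those that had such a p, were the most abundant, or were listed for fibroblasts or Schwann cells. Not every such gene is named, and Bmp1 and Matn3 fall outside this rule and were named after their values were seen. The members and lists were chosen with earlier results of these data known. The Schwann list was shortened after its values were seen, for a reason unrelated to them. As libraries were non-directional, reads of overlapping genes on opposite strands cannot be separated; at most 6.07% of a member's exon bases overlap another gene (Col9a3). Pairs of libraries of a group varied beyond counting error, the lowest ratio of chi-square to its degrees of freedom being 5.16. Alternatives covered the test, scaling, a minimum of 10 reads, pseudocounts of 0.5 and 5, thresholds, the length used for ratios, leaving out the 3 main chains, the replicate number and each library left out.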

Additional observations from a re-analysis of the deposited data

Results flagged for a closer look

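In 3 of 134 groups of 4 libraries, the highest or lowest library stood apart from its group, with a gap to the nearest value above Dixon's 95% critical share of the group's range; chance alone gives this in about 1 in 20 groups. Col5a1 was higher in TGFβ1FKO replicate 3, at 75558 normalised counts, than in replicates 1, 2 and 4, at 71012, 71354 and 70761 (gap 0.876 of the range). Col17a1 was higher in control replicate 1, at 26.67, than in the other controls at 22.7 to 23.4 (0.833). Col4a3 was lower in TGFβ1FKO replicate 3, at 3.32, than in the others at 6.08 to 6.65 (0.83), a difference of few reads.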

How the results depend on the processing

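Of 621 fold changes of collagen genes recomputed under 17 alternative fits, 601 kept their direction and their side of the thresholds, 2 passed the thresholds anew and 18 turned sign; 28 genes kept their sign throughout. The number of collagen genes called, 0, was 1 with DESeq2 against 0 and between 0 and 1 with single libraries left out (Col15a1 without control replicate 1). In the whole table the 13 called genes became 20 with edgeR, 56 with DESeq2 against 0, 3 with at least 10 reads in every library, 25 at an adjusted p under 0.1, 5 at 0.01, and between 5 and 32 with single libraries left out (7, 6, 5 and 32 without controls 1 to 4, and 5 without TGFβ1FKO 2 or 4). With the replicate number as a replicate block 31 genes were called, 0 of them collagens. Same-numbered libraries deviated together with correlations of only -0.134 to 0.159. No control library correlated best with the TGFβ1FKO library of its own number, and the numbers were not taken as pairs. At an unadjusted p under 0.05, DESeq2's test against 0.6 left 0 collagen genes in place of 8, and 0.39% of all genes. That test asks for a change beyond 0.6, not for any change. With a library left out, that p was lost for Col18a1 (without control 3 or 4, TGFβ1FKO 1 or 3), Col8a2 (control 2 or 4, TGFβ1FKO 2 or 3), Col15a1 and Col27a1 (both control 3). The number of collagen genes without overlap, 1, was between 1 and 5 with a library left out (3, 5 and 4 without controls 1, 2 and 4, and 5, 2 and 4 without TGFβ1FKO 1, 2 and 3), where fewer libraries have to be apart. Those were 2.7% to 13.5% of the members, and over all genes the share without overlap was 5.55% to 9.34% with a library left out, against 3.79% with all 8. With a library left out, the endothelial markers with an unadjusted p under 0.05, 2 of 10, were between 0 and 4, and the pericyte markers, 1 of 6, between 0 and 3 (5.36% to 9.75% of all genes). Likewise the collagen receptors, 1 of 8, and the proteins that bind fibrils, 1 of 12, were each between 0 and 2. Genes for collagen modification and cross-linking, 2 of 31, were between 1 and 5. Scaled to genes that are not collagens, these were 5 (7.45% of all genes). In 27 of 37 collagen genes leaving out 1 library changed the estimate by a factor over 1.5 or turned its sign. Estimates near 0 turned sign with single libraries left out. The log2 fold change of Col1a1 ran from -0.0132 without control 1 to 0.0788, the log2 fold change of Col1a2 from -0.053 to 0.058 (turned without control 4, TGFβ1FKO 1 or 3), the log2 fold change of Col3a1 from -0.0462 to 0.0698 (control 1 or TGFβ1FKO 1), the log2 fold change of Col16a1 from -0.1298 to 0.0179 (control 4), the log2 fold change of Col10a1 from -0.0041 to 0.2323 (control 2), the log2 fold change of Col4a4 from -0.0167 to 0.1529 (control 4 or TGFβ1FKO 3), the log2 fold change of Col11a2 from -0.4107 to 0.1138 (control 1 or 3, TGFβ1FKO 3), the log2 fold change of Col2a1 from -0.6523 to 0.0649 (control 3 or 4, TGFβ1FKO 2) and the log2 fold change of Col4a3 from -0.0406 to 0.2915 (control 1). Scaled to genes that are not collagens, the log2 fold change of Col3a1 was -0.0003. Without Col1a1, Col1a2 and Col3a1, which hold most of these reads, the collagen share was 2.609% in control and 2.804% in TGFβ1FKO libraries. Without division by length the mean ratios in control and TGFβ1FKO libraries were 1.78 and 1.82 (Col1a1 to Col1a2), 0.733 and 0.753 (Col5a1 to Col5a2), 1.13 and 1.13 (Col6a1 to Col6a2) and 1.52 and 1.58 (Col6a3 to Col6a1). Where no construction is named, the cause was not tested. Depth limits the 8 members with under 10 reads in a library.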
